A study of Mus musculus with 15 samples.

Results

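The subject is the part of mouse chromosome 17 that holds the H2 complex, the mouse major histocompatibility complex (MHC), as it appears among genes that differed between Sik3 knockout and wild-type osteoclast precursors. The 42 genes were taken from the 2275 genes of the authors' knockout table, which lists only genes with a false discovery rate under 0.05 and a fold of at least 2. A gene was taken if it lay whole between 33 and 38 Mb of chromosome 17 (GRCm38). The MHC class II genes and Tnf and Atp6v1g2 were left out by name, which removed H2-DMb1, H2-Ob and Tnf from 45 listed genes. The genes were thus selected on their KO against WT values, which are given here as a description without a test. The full table of the other experiment lists 41819 genes, 303 of them in the same stretch, and names all 42.

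RNA was sequenced from cells that every sample label calls bone marrow monocytes, with 3 libraries in each of 5 groups, all labelled strain C57BL/6J. The series' own design note speaks of embryonic livers instead, and the sample labels and culture protocol are followed here. KO cells carried a Sik3 deletion by Cre recombinase expressed from the Rank (Tnfrsf11a) locus, which the labels call osteoclast-specific, and WT is labelled as a wild-type control. The protocol names 3 kinds of donor, plain C57BL/6J mice, mice with Rank_Cre/+ alone, and mice with Rank_Cre/+ and Sik3_flox/flox, without saying whether plain or Cre-only mice served as WT, and the Rank_cre and Sik3_flox lines came from separate laboratories. KO and WT cells had M-CSF, a macrophage growth factor, alone for 2 days and then with RANKL, the osteoclast-inducing cytokine, for 2 days, each at 50 ng/ml. SCRP cells had RANKL at 50 ng/ml for 3 days with pterosin B at 300 µM, a bracken compound used against SIK3 signalling. SCR cells had RANKL at 50 ng/ml for 3 days without pterosin B, and SC cells are labelled vehicle with no RANKL named. All 3 groups had first had M-CSF alone for 2 days at 50 ng/ml. The later culture time of SC, the age and sex of the mice, and whether a group's libraries came from separate animals are not stated in the sources used here. The p-values thus measure only the spread between these libraries, which may be technical.

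MHC class I molecules are made of a heavy chain and beta-2 microglobulin, and show fragments of the cell's own proteins to CD8 T cells and natural killer cells. The transporter TAP pumps the fragments into the endoplasmic reticulum, where they are loaded. The classical heavy chain H2-K1 is made by nearly all nucleated cells, while the non-classical Q, T and M genes have narrower expression and more specialised partners. The H2 complex is among the most variable parts of the mouse genome, and inbred strains carry different H2 haplotypes that differ in sequence and in the number of Q and T genes. The same stretch holds inducible heat shock genes, the tumour necrosis factor cluster and many unrelated genes.

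Counts are given as CPM, exon reads divided by the library total and scaled to 1000000, with the total implied by the authors' RPKM. These totals were 21267111 to 25932103 reads in KO, 22358396 to 25405494 in WT, 44923159 to 54929728 in SCRP, 40938183 to 54477074 in SCR and 44032181 to 52866901 in SC. Sik3 itself (chromosome 9) had 23.9, 17.6 and 19.4 CPM in the KO libraries, against 58.3, 59.4 and 55.97 CPM in the WT libraries. All 8 osteoclast markers examined were listed as lower in KO, and 3 of the 6 monocyte and macrophage markers were listed as higher in KO. Of the other lists, 1 of 5 dendritic markers was listed as lower. Higher in KO were 1 of 6 neutrophil and 2 of 4 erythroid and megakaryocyte markers. Over all chromosomes, 11.2% of genes averaging at least 1 CPM over SCRP, SCR and SC were listed. Summed osteoclast markers ranged over 976 to 1271 CPM in SCRP, 4373 to 4616 CPM in SCR and 151 to 161 CPM in SC, with Calcr at 0 in SC. Nearly all of the SC sum was Tnfrsf11a, at a mean of 149 CPM. Acp5, Ctsk and Mmp9 averaged 2.02, 1.36 and 1.99 CPM in SC. Summed monocyte and macrophage markers ranged over 2576 to 2762 CPM in SCRP, 2493 to 2654 CPM in SCR and 4592 to 4716 CPM in SC, so that SCRP and SCR overlap and both lie below SC. The summed osteoclast markers do not overlap between any of these groups. The part of either marker list in the results below was not tested. The 7 lymphoid markers summed to at most 0.334 CPM in any of these 9 libraries, with Cd3e and Ncr1 at 0, and 2 of the 7 were listed, both higher in KO. Erythroid and megakaryocyte markers summed to 29.2 to 34.8 CPM in SCRP, 27.6 to 43.5 CPM in SCR and 212 to 224 CPM in SC. In bulk samples, fewer cells of a type and less RNA per cell cannot be told apart.

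Of the 42 genes, 19 were higher in KO and 23 were lower in KO, while 1053 of all 2275 listed genes were higher and 1222 lower. By construction 100% of the listed genes were called, so nothing is read from the members' count. In 38 of the 42 genes the KO and WT libraries did not overlap, and the same held for 92.7% of all listed genes. Among genes averaging at least 1 CPM over the other 9 libraries, 19 of 113 in the 33 to 38 Mb stretch were listed (16.8%), against 4 of 45 in the preceding 5 Mb (8.89%), 1 of 7 in the following 5 Mb (14.3%) and 1263 of 11308 on all chromosomes (11.2%). This cut drops members seen almost only in WT, such as H2-Q6 and Gm8909. It keeps listed genes that were left out by name and are not members, Tnf among them. Of the 19 listed genes that it leaves in the stretch, 13 were higher and 6 lower in KO. The smallest fold among the members in the authors' deposited table was 2.11, for H2-T10, and genes under a fold of 2 are not analysed here. The outermost members are Pram1 and H2-M3. The nearest listed gene before the stretch, Zfp811, averaged 0.0313 CPM in KO and 0.371 CPM in WT, and the nearest after it, 9130008F23Rik, averaged 1.12 CPM in KO and 2.34 CPM in WT. Further out, Rasal3 averaged 16.4 CPM in KO and 7.06 CPM in WT, Cyp39a1 1.06 CPM in KO and 0.127 CPM in WT, Slc25a27 0.06499 CPM in KO and 0.329 CPM in WT, and Gm26858 0 CPM in KO and 0.424 CPM in WT.

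**Figure D1:**
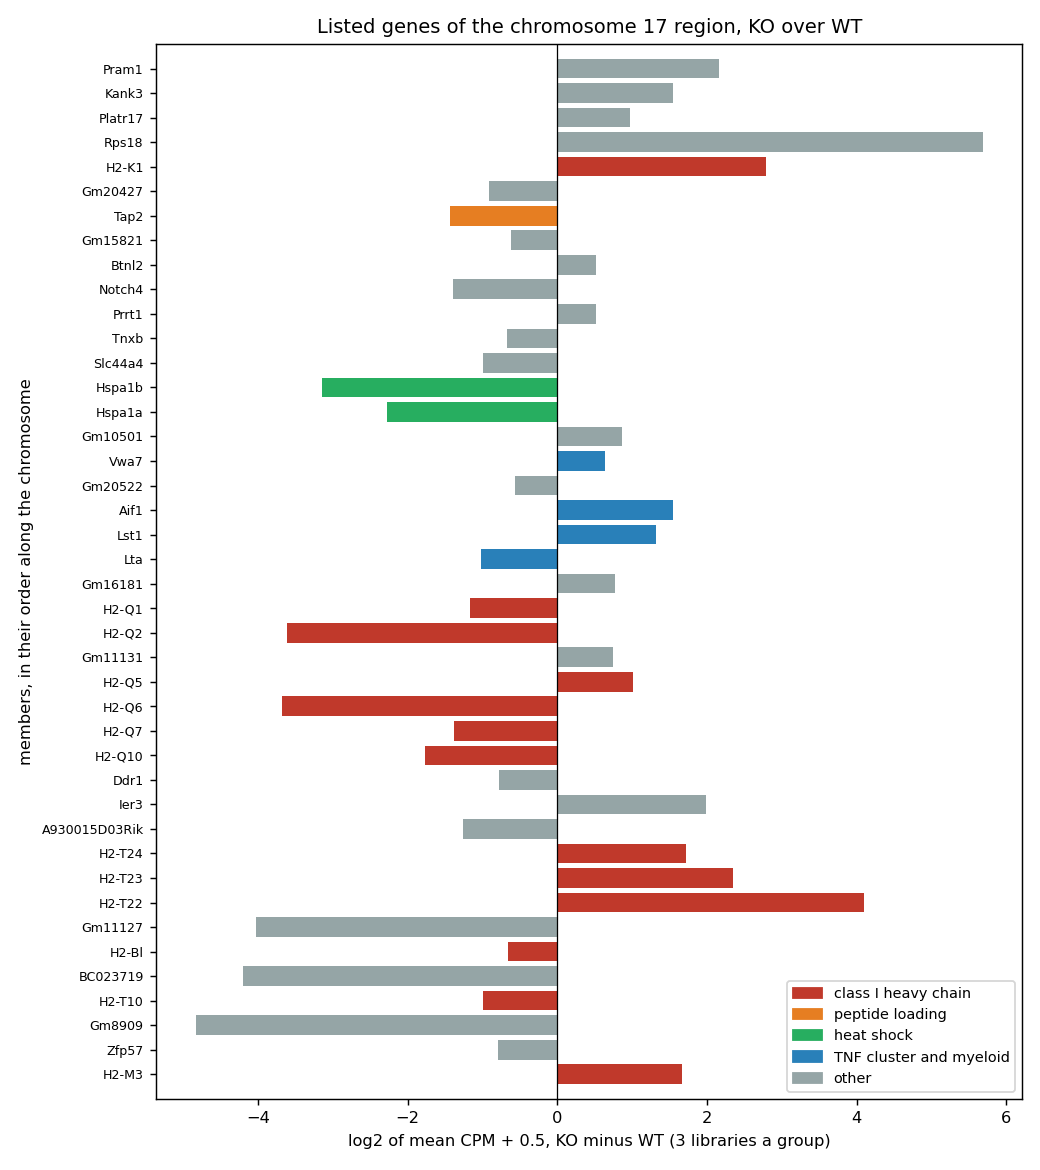
Log2 difference between mean KO and mean WT levels, after adding 0.5 CPM, for the 42 genes in their order along the chromosome, with colours for the role of each gene. Bars to the right are the 19 genes higher in KO and bars to the left the 23 lower in KO, and both kinds are interleaved along the stretch.

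Some of these genes have near copies, and the sequences of a pair on which a result turns are shown first. Rps18, a protein of the small ribosomal subunit, lies on chromosome 17 (33951999 to 33956001, minus strand, GRCm38), and the annotated gene Gm10260 on chromosome 13 has the same coding length of 459 bases. The annotated coding sequences differ at 4 positions (99.1% identical), written as the Rps18 base, the position counted from 1 at the first base of the start codon, and the Gm10260 base, namely T186C, A337C, G371A and G431A. Bases 166 to 451 of both coding sequences (GENCODE release 21) are given below, with the differing bases in capitals.
Rps18: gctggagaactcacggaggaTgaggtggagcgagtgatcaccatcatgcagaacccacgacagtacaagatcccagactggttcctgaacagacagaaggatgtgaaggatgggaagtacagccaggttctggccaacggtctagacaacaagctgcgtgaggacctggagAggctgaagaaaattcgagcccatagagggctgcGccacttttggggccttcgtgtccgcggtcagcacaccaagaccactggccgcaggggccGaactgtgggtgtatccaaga
Gm10260: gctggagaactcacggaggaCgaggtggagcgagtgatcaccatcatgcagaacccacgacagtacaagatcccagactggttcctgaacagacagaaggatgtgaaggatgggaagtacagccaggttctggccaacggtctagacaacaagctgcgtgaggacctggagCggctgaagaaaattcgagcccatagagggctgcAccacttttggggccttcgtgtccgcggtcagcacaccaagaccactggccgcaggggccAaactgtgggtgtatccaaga

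Reads of the Rps18 sequence family went to different genes in different groups. Rps18 had 529.6, 523 and 548 CPM in the KO libraries, against 9.03, 10.4 and 10.1 CPM in the WT libraries, and the groups do not overlap (54.2-fold higher in KO). Gm10260, also listed, had 0.141, 0 and 0.116 CPM in the KO libraries, against 399, 387 and 376 CPM in the WT libraries, the opposite order. The sum of both genes averaged 534 ± 13.1 CPM in KO and 397 ± 11.2 CPM in WT (SD, n = 3), a ratio of 1.34. In the other experiment Rps18 had 422, 416 and 359 CPM in SCRP, 408, 412 and 424 CPM in SCR and 334, 276 and 257 CPM in SC. Gm10260 stayed at or under 0.342 CPM in these 9 libraries, so SCRP, SCR and SC divided the reads as KO did. Of the Rps18 reads there, 96.9% were counted as unique. Fewer than 1 coding base in 100 separates the copies, so a read within the coding sequence that covers none of the 4 positions cannot tell them apart. Bases outside the coding sequences were not compared, and the values of each gene alone are uncertain.

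**Figure D2:**
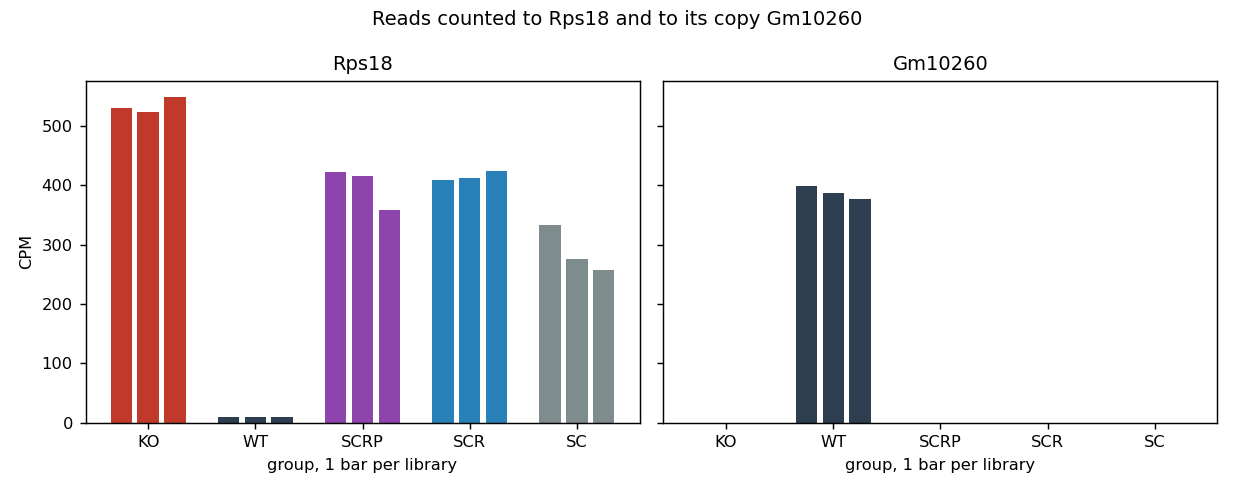
CPM counted to Rps18 (left) and to Gm10260 (right), 1 bar for each of the 15 libraries. The 3 WT bars are near 0 for Rps18 and at 376 to 399 CPM for Gm10260, while the other 12 libraries show the reverse.

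Among the 13 class I heavy chain genes, 6 were higher in KO and 7 were lower in KO. H2-K1 (33996017 to 34000347), the classical heavy chain, had 629.9, 607 and 697 CPM in the KO libraries, against 94.5, 94.9 and 89.3 CPM in the WT libraries (6.94-fold higher in KO). H2-T23, which encodes the Qa-1 molecule seen by natural killer cell receptors, had 54.3, 51.8 and 56.8 CPM in the KO libraries, against 9.79, 10.5 and 10.4 CPM in the WT libraries (5.297-fold). H2-T22, whose product is a ligand of some gamma-delta T cells, had 35.97, 36.8 and 39.1 CPM in the KO libraries, against 2.15, 1.42 and 1.57 CPM in the WT libraries (21.8-fold). In each of these genes every KO library exceeded every WT library. H2-T24, a less studied T-region gene, had 6.301, 5.99 and 7.64 CPM in the KO libraries, against 1.92, 1.55 and 1.54 CPM in the WT libraries (3.98-fold). H2-M3, which presents peptides that start with formyl-methionine, had 22.4, 21.05 and 26.3 CPM in the KO libraries, against 6.396, 8.24 and 6.26 CPM in the WT libraries (3.34-fold). H2-Q5, annotated as a polymorphic pseudogene, had 0.658, 0.832 and 0.848 CPM in the KO libraries, against 0.134, 0.221 and 0.0394 CPM in the WT libraries. These 6 genes averaged 767 ± 54.4 CPM in sum in KO and 114 ± 3.99 CPM in WT (SD, n = 3).

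The 7 class I genes lower in KO lie in the Q and T regions. H2-Q6, a Qa-2 family gene (35424850 to 35430055), had 0.611, 0.476 and 0.8098 CPM in the KO libraries, against 14.5, 14.04 and 13.5 CPM in the WT libraries (22.2-fold lower in KO). H2-Q7, also of the Qa-2 family, had 2.59, 2.02 and 2.89 CPM in the KO libraries, against 7.87, 7.48 and 6.53 CPM in the WT libraries (2.92-fold lower in KO). H2-Q2 had no read in any KO library and 4.65, 6.597 and 5.55 CPM in the WT libraries, at least 44.7-fold lower in KO against a floor of 3 counts per library. The groups were apart in all of these genes. H2-Q10, known as a secreted class I molecule of the liver, had 0.04702, 0 and 0.0386 CPM in the KO libraries, against 1.74, 1.24 and 0.905 CPM in the WT libraries. It rests on 2 KO reads, with a ratio of 45.4 between WT and KO and a 95% exact counting interval of 12.5 to 388. H2-Q1 had 0.09404, 0.198 and 0.193 CPM in the KO libraries, against 1.03, 1.02 and 0.905 CPM in the WT libraries (6.09-fold lower in KO). Such intervals and floors cover counting error only. The polymorphic pseudogene H2-T10, whose product is known as a ligand of gamma-delta T cells in some strains, had 2.35, 2.26 and 3.08 CPM in the KO libraries, against 6.31, 5.003 and 5.39 CPM in the WT libraries (2.17-fold lower in KO). H2-Bl had no KO read, against 0.224, 0.487 and 0.157 CPM in WT. In sum these 7 genes averaged 5.89 ± 1.05 CPM in KO and 35.1 ± 1.82 CPM in WT (SD, n = 3).

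The other experiment placed the 7 class I genes lower in KO below WT, while the 6 higher in KO differed in their place. The 7 genes lower in KO averaged 2.76 ± 0.419 CPM in sum in SCRP, 2.28 ± 0.163 CPM in SCR and 3.42 ± 0.324 CPM in SC (SD, n = 3). H2-Q6 was at or under 0.168 CPM in all 9 of those libraries, H2-Q2 at or under 0.237 CPM, H2-Q10 at or under 0.291 CPM, H2-Q7 at or under 0.661 CPM, H2-Q1 at or under 0.522 CPM and H2-Bl at or under 0.109 CPM. H2-T10 had 1.87, 1.72 and 1.38 CPM in SCRP, 1.35, 1.51 and 1.05 CPM in SCR and 2.25, 2.61 and 2.43 CPM in SC. All 7 thus stood below every WT library in each of the 9 libraries. H2-Q6 and H2-Q7 stood below every KO library as well. H2-K1 had 391, 389.7 and 389.9 CPM in SCRP, 326, 321 and 328 CPM in SCR and 365, 340.3 and 339 CPM in SC, between KO and WT. H2-T22 had 20.6, 17.6 and 21.1 CPM in SCRP, 21.4, 19.8 and 19.9 CPM in SCR and 34.9, 31.4 and 34.7 CPM in SC, above WT in each library. H2-T23 had 15.4, 16.6 and 16.3 CPM in SCRP, 27.1, 24.8 and 29.3 CPM in SCR and 43.2, 40.02 and 38.3 CPM in SC, and again no library reached down to WT. H2-T24 had 1.71, 1.78 and 1.75 CPM in SCRP, 4.14, 2.42 and 3.91 CPM in SCR and 4.05, 5.81 and 4.43 CPM in SC, so that SCRP lay within the WT range. H2-M3 had 6.92, 6.86 and 7.88 CPM in SCRP, 5.78, 5.84 and 5.75 CPM in SCR and 16.04, 18.6 and 16.9 CPM in SC, with SCRP inside the WT range, SCR below it, and SC between WT and KO. H2-Q5 ranged from 0 to 0.382 CPM over the 9 libraries, below every KO library. Its means were 0.157 CPM in SCRP, 0.121 CPM in SCR and 0.123 CPM in SC, near the WT mean of 0.132 CPM. The tables were normalised separately, and no test was made between them.

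**Figure D3:**
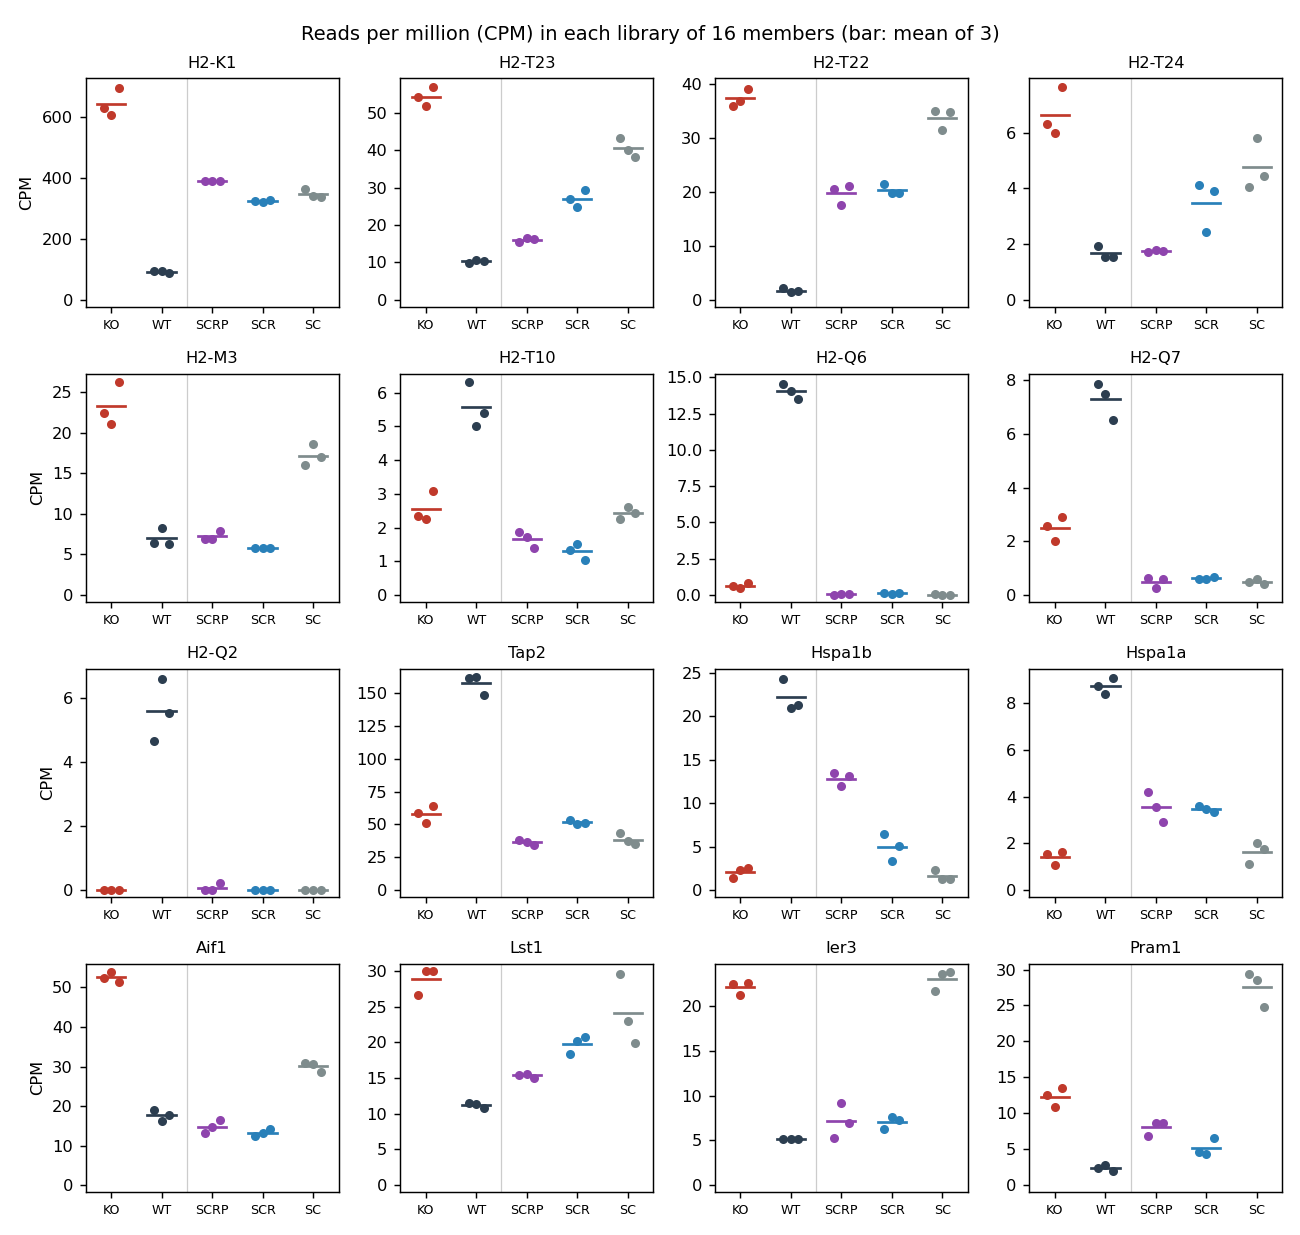
CPM in every library of 16 members, with points for libraries and a bar for the mean of 3, the knockout experiment left of the grey line and the pterosin B experiment right of it. H2-Q6, H2-Q2 and H2-Q7 are high in WT alone, Tap2 lies highest in WT, at 149 to 162 CPM, and H2-M3, Aif1, Ier3 and Pram1 are lower in SCR than in SC.

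Near-identical class I genes can exchange reads. The closest match of the H2-T22 transcript among these genes was H2-T10 (96.3% identical over 1532 aligned bases), and the pair was on opposite sides in KO. H2-Q7 matched H2-Q6 at 94.7% over 1031 bases, H2-Q5 matched H2-Q7 at 95.1% over 1006 bases, and H2-Q6 matched the unlisted H2-Q4 at 92.5% over 1300 bases. In the pterosin B experiment 98.6% of H2-T22 reads and 99.997% of H2-K1 reads were unique, against 69.4% for H2-T10 and 27.98% for H2-T24. The knockout table holds no unique reads, so levels of single Q and T genes there are uncertain. H2-D1, the other classical heavy chain of the reference genome, averaged 675 CPM in SCRP, 666 CPM in SCR and 636 CPM in SC but is not among the listed genes.

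Class I promoters are known for an enhancer A element that binds NF-kB, an interferon-stimulated response element (ISRE) and a Y box of inverted CCAAT type. Stretches before the annotated starts of 4 members are shown, because they show the letters of these elements before class I members of either direction, with matches in capitals (RefSeq promoter windows of 300 bases, GRCm38.p6, the reference genome and not the sequence of these mice).
H2-K1, chr17:34000332-34000477, minus strand: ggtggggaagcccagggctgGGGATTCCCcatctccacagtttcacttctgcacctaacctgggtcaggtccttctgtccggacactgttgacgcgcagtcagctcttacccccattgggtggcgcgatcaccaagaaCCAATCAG
H2-Q6, chr17:35424658-35424822, plus strand: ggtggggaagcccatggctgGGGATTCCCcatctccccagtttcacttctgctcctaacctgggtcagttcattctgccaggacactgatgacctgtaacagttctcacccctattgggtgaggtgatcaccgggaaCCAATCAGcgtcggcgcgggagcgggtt
H2-T23, chr17:36032726-36032844, minus strand: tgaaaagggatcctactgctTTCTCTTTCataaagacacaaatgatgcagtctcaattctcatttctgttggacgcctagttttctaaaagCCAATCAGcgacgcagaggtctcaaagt
H2-T22, chr17:36042904-36042952, minus strand: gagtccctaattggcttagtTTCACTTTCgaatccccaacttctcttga

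Letters were searched on both strands, and a match is a description only. Percentages are of windows, and a gene can have more than 1 window, as H2-K1 does with 2. A member counts once if any of its windows matches, so the units of both counts differ. The letters of enhancer A and of the ISRE were shortened to 9 after matches had been seen. Their counts are thus not independent of the members. GGGATTCCC of enhancer A was found in 0.353% of 32851 promoter windows and, of the 27 members with a window, in 3, H2-K1, H2-Q6 and H2-Q7. CTGATTGG of the Y box was found in 4.097% of all windows and in 6 members, H2-K1, H2-Q6, H2-Q7, H2-T23, Hspa1a and Hspa1b. GAAANNGAA, an ISRE core, was found in 8.56% of all windows and in 6 members, Aif1, Gm11127, H2-T22, H2-T23, Notch4 and Zfp57. The H2-K1 and H2-Q6 stretches above hold agtttcacttct in lower case, which these exact letters do not match. A member without a match may thus still carry a variant of an element. The part of these elements in the KO and WT values was not tested.

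Gm8909, Gm11127 and BC023719, 3 further listed genes of the T region, carried WT reads and few or none in the other groups. Gm8909 (ENSMUSG00000073402, 36164443 to 36168537), annotated as protein coding and 91.6% identical to H2-Bl over 942 bases, had 0.188, 0 and 0 CPM in the KO libraries, against 16.5, 15.5 and 14.5 CPM in the WT libraries. All 4 KO reads came from KO replicate 1, so the WT to KO ratio of 247 rests on that library, with a 95% exact counting interval of 109 to 1029.6. Gm11127 (ENSMUSG00000079492, 36055816 to 36058371), 79.9% identical to H2-D1 over 1009 bases, had 0, 0 and 0.0771 CPM in the KO libraries, against 8.72, 9.25 and 6.26 CPM in the WT libraries. It rests on 2 KO reads, with a WT to KO ratio of 314 and a 95% exact counting interval of 79.9 to 2399. BC023719 (ENSMUSG00000092365, 36111426 to 36117121), an antisense gene that overlaps H2-T10 on the opposite strand, had no KO read and 8.95, 7.79 and 9.25 CPM in WT, at least 69.2-fold lower in KO. In the pterosin B experiment BC023719 had no read in 9 libraries, Gm8909 at most 0.346 CPM and Gm11127 at most 0.583 CPM. Averages above 1 CPM in 1 genotype and below 0.1 CPM in the other were found for 15 of the 2275 listed genes, and 5 of these are members, H2-Q2, H2-Q10, Gm11127, BC023719 and Gm8909, all high in WT. The 10 others lie on 7 other chromosomes, and include Gm10260 and the X-linked Xlr3a and Xlr3b.

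Tap2, a subunit of the peptide transporter (34203527 to 34216321), was the only listed gene of 5 in the region's peptide loading list. It had 58.4, 51.3 and 64.1 CPM in the KO libraries, against 162, 162 and 149 CPM in the WT libraries (2.72-fold lower in KO), and no KO library reached the WT range. In the other experiment it had 38.5, 36.5 and 34.4 CPM in SCRP, 53.4, 50.4 and 51.4 CPM in SCR and 43.5, 37.00 and 34.7 CPM in SC, all below WT, with SCR overlapping the KO range and SCRP and SC below it. The remaining loading genes Tap1, Tapbp, Psmb8 and Psmb9 averaged 30.7, 150.2, 53.2 and 14.7 CPM in SCR and are not listed in the knockout table.

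The inducible Hsp70 genes were both lower in KO. Hspa1b (34956436 to 34959238) had 1.41, 2.299 and 2.51 CPM in the KO libraries, against 24.3, 20.99 and 21.3 CPM in the WT libraries (10.7-fold lower in KO). Hspa1a had 1.55, 1.07 and 1.62 CPM in the KO libraries, against 8.77, 8.41 and 9.09 CPM in the WT libraries (6.19-fold lower in KO). Their near-identical coding regions share reads, and only 18.2% of Hspa1a and 73.3% of Hspa1b reads were unique in the pterosin B experiment. Hspa1b had 13.4, 12.01 and 13.1 CPM in SCRP, 6.46, 3.37 and 5.03 CPM in SCR and 2.27, 1.23 and 1.29 CPM in SC there, in 3 separate ranges. Hspa1a had 4.18, 3.57 and 2.93 CPM in SCRP, 3.59, 3.47 and 3.34 CPM in SCR and 1.097, 1.999 and 1.77 CPM in SC. Summed, both genes averaged 3.49 ± 0.591 CPM in KO and 30.9 ± 1.92 CPM in WT, and 16.4 ± 1.07 CPM in SCRP, 8.42 ± 1.61 CPM in SCR and 3.22 ± 0.155 CPM in SC (SD, n = 3 each).

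Around the tumour necrosis factor cluster, 3 of 4 members were higher in KO. Aif1, an actin-binding protein of macrophages, had 52.3, 53.9 and 51.3 CPM in the KO libraries, against 19.1, 16.2 and 17.7 CPM in the WT libraries (2.97-fold higher in KO). Lst1, a transmembrane protein of myeloid and other leukocytes, had 26.6, 30.01 and 30.04 CPM in the KO libraries, against 11.5, 11.4 and 10.7 CPM in the WT libraries (2.57-fold higher). Vwa7 had 0.376, 1.03 and 0.386 CPM in the KO libraries, against 0.268, 0.266 and 0.0787 CPM in the WT libraries, on 44 KO and 14 WT reads. Lta, the cytokine lymphotoxin alpha, had 0.329, 0.0396 and 0.154 CPM in the KO libraries, against 0.895, 0.841 and 0.866 CPM in the WT libraries (4.97-fold lower in KO). Groups did not overlap in these 4 genes. Aif1 had 13.1, 14.7 and 16.4 CPM in SCRP, 12.4, 13.3 and 14.2 CPM in SCR and 30.9, 30.6 and 28.6 CPM in SC, the SC libraries alone lying above the WT range. Lst1 had 15.4, 15.6 and 15.1 CPM in SCRP, 18.3, 20.2 and 20.8 CPM in SCR and 29.5, 23.1 and 19.9 CPM in SC, all above WT. Vwa7 had 0.445, 0.471 and 0.874 CPM in SCRP, 0.412, 0.366 and 0.551 CPM in SCR and 0.927, 1.04 and 1.42 CPM in SC. Lta stayed at or under 0.178 CPM in the 9 libraries, below every WT library.

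Among the remaining members that averaged at least 1 CPM, 5 were higher in KO and 5 lower, Rps18, Gm8909, Gm11127 and BC023719 being described above. Pram1, an adaptor protein of myeloid cells, had 12.5, 10.9 and 13.5 CPM in the KO libraries, against 2.37, 2.79 and 1.93 CPM in the WT libraries (5.21-fold higher in KO) and 6.901, 8.63 and 8.63 CPM in SCRP, 4.58, 4.32 and 6.61 CPM in SCR and 29.4, 28.5 and 24.8 CPM in SC. Only 11.5% of Pram1 reads were unique in the pterosin B experiment. Pram1 shares exon bases with Gm20507 on the same strand, and the part of this overlap was not tested. Ier3, an immediate early gene of the stress response, had 22.5, 21.3 and 22.6 CPM in the KO libraries, against 5.19, 5.18 and 5.16 CPM in the WT libraries (4.27-fold higher) and 5.25, 9.16 and 6.97 CPM in SCRP, 6.32, 7.597 and 7.27 CPM in SCR and 21.8, 23.6 and 23.8 CPM in SC. Its SC libraries overlapped the KO range, and its SCR libraries lay above the WT range. Kank3, an ankyrin repeat protein, had 8.605, 7.37 and 8.52 CPM in the KO libraries, against 2.997, 1.99 and 2.44 CPM in the WT libraries (3.298-fold higher) and 6.32, 7.38 and 6.85 CPM in SCRP, 6.51, 5.89 and 6.11 CPM in SCR and 7.34, 7.34 and 6.52 CPM in SC. Notch4, a Notch family receptor, had 1.83, 2.26 and 2.699 CPM in the KO libraries, against 6.62, 7.31 and 6.34 CPM in the WT libraries (2.98-fold lower) and 1.38, 1.43 and 0.9103 CPM in SCRP, 6.14, 7.84 and 5.18 CPM in SCR and 6.53, 4.41 and 3.62 CPM in SC, so that SCRP alone fell below the KO range. The antisense gene Gm11131 had 1.22, 1.86 and 0.925 CPM in the KO libraries, against 0.358, 0.9298 and 0.512 CPM in the WT libraries, where the groups overlap, and 1.02, 0.328 and 0.473 CPM in SCRP, 0.168, 0.269 and 0.1101 CPM in SCR and 0.492, 0.4996 and 0.387 CPM in SC. Gm20427, which shares exon bases with H2-Ke6 and Slc39a7, had 0.799, 1.03 and 1.62 CPM in the KO libraries, against 2.64, 1.904 and 3.27 CPM in the WT libraries and 1.05, 2.48 and 2.28 CPM in SCRP, 1.72, 1.39 and 1.32 CPM in SCR and 3.48, 2.34 and 0.474 CPM in SC. The other 12 members, Platr17, Gm15821, Btnl2, Prrt1, Tnxb, Slc44a4, Gm10501, Gm20522, Gm16181, Ddr1, A930015D03Rik and Zfp57, had between 0 and 1.18 CPM in KO libraries and between 0 and 1.16 CPM in WT libraries. Of these, 5 were higher in KO and 7 lower, on 1 to 46 reads summed over the KO libraries and 1 to 66 over the WT libraries. In all, 20 of the 42 members share exon bases with another gene, and the strand that was counted is not given in the sources used here, so reads of opposite-strand pairs such as H2-T22 and A930015D03Rik may not have been told apart.

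The SCR level, from cells with Sik3 intact, was set beside KO and WT on the scale log2 of CPM plus 0.5. SCR lay nearer to KO for 28 of 42 members (66.7%) and for 744 of 2202 listed genes outside the region (33.8%). The members lower in KO gave most of this, with 20 of 23 nearer to KO (87.0%), against 49.03% of 1185 such genes outside. A gene lower in KO also counts as nearer to KO when its SCR mean lies below both groups. Among the members this holds for Tap2, Slc44a4, Gm20522, Lta, H2-Q6 and H2-Q7, and genes outside were counted in the same way. Nearness thus does not mean a level equal to that of KO. Of the members higher in KO, 8 of 19 were nearer to KO (42.1%), against 16.03% of 1017 outside. SCRP lay nearer to KO for 28 members (66.7%, against 55.6% outside), and SC for 33 members (78.6%, against 81.7% outside). For 22 members (52.4%, against 28.7% outside) SCRP, SCR and SC were all nearer to KO. SCR shares RANKL and an intact Sik3 with WT, while SCR and WT differ in days of RANKL, in table and possibly in the stock of mice. The median distance of SCR from KO was 0.574 and from WT 0.834 on the log2 scale over the members, and 0.752 from KO and 0.401 from WT over listed genes outside. The tables hold no sequence variants, so the haplotype of each group was not tested, and in KO against WT it cannot be told apart from an effect of the deletion.

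**Figure D4:**
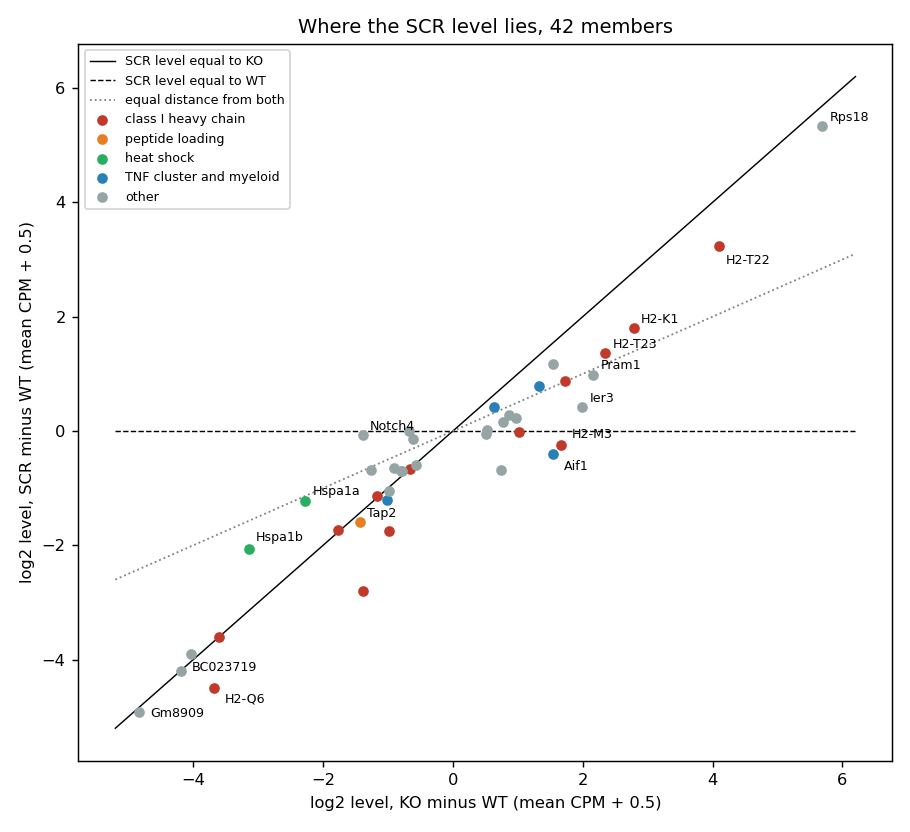
Log2 difference of SCR from WT against that of KO from WT for the 42 members, each after adding 0.5 CPM to the mean of 3 libraries. Points near the solid line have SCR at the KO level (Gm8909, BC023719, Tap2, Rps18), points near the dashed line have SCR at the WT level (Notch4, H2-M3), and the dotted line marks equal distance, which splits the members 28 to 14.

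The pterosin B experiment was not used to choose the members, so its differences were tested with edgeR over 13650 genes. Of the 42 members, 28 had enough reads to be tested. The contrasts SCR minus SC and SCRP minus SCR share the SCR libraries, and their values are set side by side without a comparison between them. If SC was harvested earlier, time in culture is part of SCR minus SC. With RANKL, 5 members rose and 11 fell, against backgrounds of 30.7% of all tested genes higher and 28.4% lower (59.1% in either direction). The median log2 fold change was -0.46 over the 28 members and 0.02 over all genes tested. With pterosin B, 5 members rose and 6 fell, against 17.9% of all tested genes higher and 19.9% lower (37.8% in either direction), and the medians were 0.20 over the members and 0.0046 over all genes.

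Class I heavy chains fell with RANKL in 6 of 8 tested members. H2-M3 fell by a log2 fold change of -1.66 ± 0.10 (SE, adjusted p = 4.45e-10), the largest fall among them. H2-T10 (log2 fold change -0.998 ± 0.28 SE, adjusted p = 0.00516), H2-T22 (log2 fold change -0.82 ± 0.08 SE, adjusted p = 1.81e-07) and H2-T23 (log2 fold change -0.68 ± 0.08 SE, adjusted p = 8.05e-07) fell as well. The change of H2-K1 was small (log2 fold change -0.19 ± 0.04 SE, adjusted p = 5.79e-04), and H2-T24 passed narrowly (log2 fold change -0.54 ± 0.23 SE, adjusted p = 0.0499). H2-Q1 (log2 fold change -1.38 ± 0.68 SE, adjusted p = 0.0959) and H2-Q7 (log2 fold change 0.22 ± 0.52 SE, adjusted p = 0.744) did not pass. The H2-T24 call was lost in 7 of 12 alternatives, with adjusted p up to 0.231, among them unique reads, where the fall was larger but did not pass (log2 fold change -1.001, adjusted p = 0.116). Leaving out SC replicate 2, SC replicate 3, SCR replicate 2 or SCR replicate 3 gave adjusted p of 0.231, 0.0612, 0.209 and 0.0553.

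With pterosin B the class I members split. H2-T24 (log2 fold change -1.01 ± 0.23 SE, adjusted p = 0.00269) and H2-T23 (log2 fold change -0.76 ± 0.08 SE, adjusted p = 1.09e-06) fell. H2-K1 rose slightly (log2 fold change 0.25 ± 0.04 SE, adjusted p = 1.15e-04), as did H2-M3 (log2 fold change 0.31 ± 0.10 SE, adjusted p = 0.0269), whose call was lost in 7 of 12 alternatives with adjusted p up to 0.118. Leaving out any SCR replicate, or SCRP replicate 3, lost it, at adjusted p of 0.0629, 0.0551, 0.0691 and 0.118. H2-T22 (log2 fold change -0.06 ± 0.08 SE, adjusted p = 0.645), H2-T10 (log2 fold change 0.34 ± 0.28 SE, adjusted p = 0.371), H2-Q1 (log2 fold change 0.70 ± 0.69 SE, adjusted p = 0.4700) and H2-Q7 (log2 fold change -0.36 ± 0.52 SE, adjusted p = 0.631) did not pass. H2-D1, outside the member list, passed in neither contrast.

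Tap2 rose with RANKL (log2 fold change 0.33 ± 0.08 SE, adjusted p = 0.00132) and fell with pterosin B (log2 fold change -0.52 ± 0.08 SE, adjusted p = 5.72e-05). Hspa1b rose in both contrasts, by 1.53 ± 0.24 (SE, adjusted p = 3.86e-05) in SCR minus SC and by 1.36 ± 0.22 (SE, adjusted p = 1.14e-04) in SCRP minus SCR. Hspa1a rose with RANKL (log2 fold change 1.01 ± 0.25 SE, adjusted p = 0.00221) and did not pass with pterosin B (log2 fold change 0.03 ± 0.24 SE, adjusted p = 0.948).

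Of the TNF cluster and myeloid list, the tested members Aif1, Lst1 and Vwa7 fell with RANKL, and Lta was too low to test. Aif1 (log2 fold change -1.27 ± 0.09 SE, adjusted p = 3.12e-09), Lst1 (log2 fold change -0.39 ± 0.11 SE, adjusted p = 0.00766) and Vwa7 (log2 fold change -1.44 ± 0.46 SE, adjusted p = 0.01296) passed. Outside that list, Pram1 (log2 fold change -2.50 ± 0.14 SE, adjusted p = 1.79e-10) and Ier3 (log2 fold change -1.80 ± 0.15 SE, adjusted p = 1.65e-08) also fell. The summed monocyte and macrophage markers given above were lower in SCR than in SC in the same libraries. With pterosin B, Lst1 fell (log2 fold change -0.37 ± 0.12 SE, adjusted p = 0.0181) and Pram1 rose (log2 fold change 0.62 ± 0.15 SE, adjusted p = 0.00287), a rise that was larger in unique reads but did not pass there (log2 fold change 0.88, adjusted p = 0.0815). Aif1 (log2 fold change 0.14 ± 0.09 SE, adjusted p = 0.269) and Ier3 (log2 fold change 0.01 ± 0.15 SE, adjusted p = 0.974) did not pass. Without SC replicate 1 the Lst1 fall with RANKL did not pass (adjusted p = 0.0711), nor did that of Vwa7 without SC replicate 3 (adjusted p = 0.0631) or in unique reads (log2 fold change -1.13, adjusted p = 0.0714). The Lst1 fall with pterosin B did not pass without SCR replicate 2, SCR replicate 3 or SCRP replicate 3 (adjusted p = 0.0501, 0.0684 and 0.0538).

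Of the rest, Tnxb, the matrix protein tenascin-X, had 0.0445, 0.04098 and 0 CPM in SCRP, 0.973, 0.684 and 1.16 CPM in SCR and 0, 0.0454 and 0.172 CPM in SC. It rose with RANKL (log2 fold change 3.59 ± 0.86 SE, adjusted p = 0.00186) and fell with pterosin B (log2 fold change -4.99 ± 0.97 SE, adjusted p = 6.76e-04), on 143 reads in SCR, 10 in SC and 4 in SCRP. Notch4 fell with pterosin B (log2 fold change -2.37 ± 0.26 SE, adjusted p = 2.12e-06) and did not pass with RANKL (log2 fold change 0.29 ± 0.24 SE, adjusted p = 0.303). Rps18 rose with RANKL (log2 fold change 0.43 ± 0.08 SE, adjusted p = 2.04e-04). Gm11131 rose with pterosin B (log2 fold change 1.73 ± 0.63 SE, adjusted p = 0.0398), a call lost in 6 of 12 alternatives, among them leaving out SCR replicate 1 or 3 (adjusted p = 0.108 and 0.144) or SCRP replicate 1 or 3 (adjusted p = 0.2501 and 0.0573). Kank3 passed in neither contrast, with log2 fold change -0.29 ± 0.13 SE, adjusted p = 0.0565 for SCR minus SC.

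**Figure D5:**
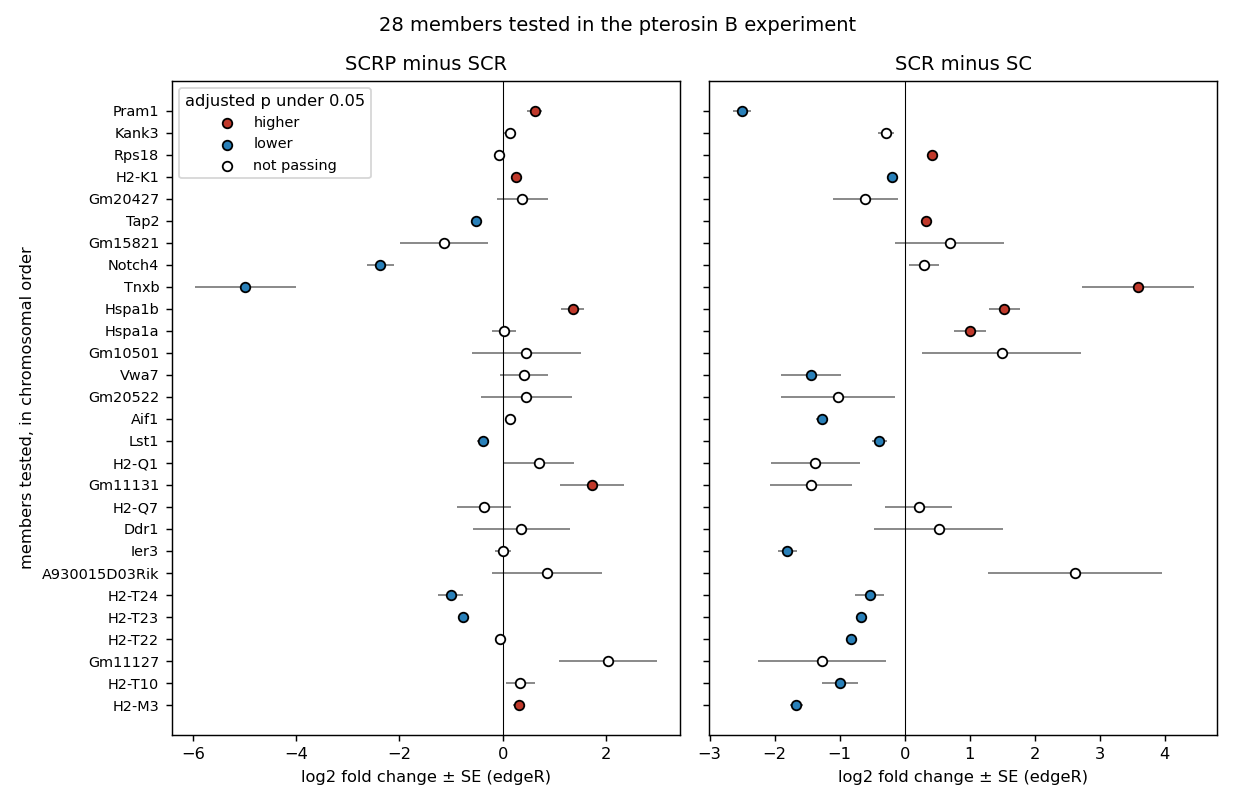
Log2 fold change with SE from edgeR for the 28 members tested, in chromosomal order, for SCRP minus SCR (left) and SCR minus SC (right). Filled points passed at an adjusted p under 0.05, with 5 higher and 6 lower on the left and 5 higher and 11 lower on the right.

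Genes of the same pathways outside the region were examined by lists. Beside their counts stand the shares of all tested genes given above, 30.7% higher and 28.4% lower with RANKL, and 17.9% higher and 19.9% lower with pterosin B, and the 11.2% of expressed genes that were listed in the knockout table. Of 16 class I pathway genes, 3 were listed, all higher in KO. Nlrc5, the activator of class I promoters, averaged 32.5 ± 1.75 CPM in KO and 13.1 ± 0.501 CPM in WT, the class I-like gene Mr1 9.72 ± 0.646 CPM in KO and 2.48 ± 0.254 CPM in WT, and Cd1d1, which presents lipids, 13.98 ± 0.3004 CPM in KO and 5.46 ± 0.717 CPM in WT (SD, n = 3 each). With RANKL 1 of the 16 rose and 13 fell, led by Mr1 (log2 fold change -2.97 ± 0.28, adjusted p = 1.07e-07), Cd1d1 (-1.36 ± 0.17, adjusted p = 2.96e-06) and Nlrc5 (-1.04 ± 0.10, adjusted p = 1.77e-07), while B2m, the shared light chain, changed by -0.27 ± 0.05, adjusted p = 2.06e-04. With pterosin B 2 rose and 6 fell. Nlrc5 averaged 15.02 CPM in SCRP, 14.5 CPM in SCR and 27.97 CPM in SC, so SCRP and SCR lay close to the WT mean and SC nearer to KO.

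Of 26 interferon response genes, 10 were listed, all higher in KO, with Iigp1, Mx2, Usp18 and Oasl2 showing the largest folds at 10.96, 3.69, 2.97 and 2.84. With RANKL 3 rose and 16 fell, and with pterosin B 1 rose and 13 fell. Of 12 heat shock genes, most of them cytosolic, Hspb1 alone was listed, at 0.0939 CPM in KO and 0.377 CPM in WT. With RANKL 9 of the 12 rose and 0 fell. The largest rises were those of the mitochondrial chaperonin genes Hspd1 (log2 fold change 1.32 ± 0.04, adjusted p = 8.04e-14) and Hspe1 (0.99 ± 0.07, adjusted p = 5.34e-09), and Hsp90aa1, a cytosolic chaperone, followed (0.87 ± 0.05, adjusted p = 3.54e-10). With pterosin B 1 rose, Hsph1 (0.53 ± 0.05, adjusted p = 1.70e-07), and 5 fell, while Hspa1b in the region rose.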

How the data were processed

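Reads were exon reads per gene in 15 libraries of 2 tables. The counts are as deposited by the authors, whole exon reads with unique and intron reads beside them in the full table, per the file headers. RPKM values are the authors' own, per the file headers. Deposited p-values after false discovery rate correction and the score, a signed fold, come from a test called EDGE, per the file headers. Positions and exon lengths are other values that the authors deposited. The build is GRCm38 (mm10), per the submitters' processing notes; the sources used here do not give the aligner, the counter or the strand. A further 147 per-sample columns were not used.

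Library totals were recovered from counts, RPKM and exon length, and CPM used them in both tables. The knockout table holds only genes that passed, and it chose the members, so it was described and not tested. Its ratios differed from the authors' fold by a median of -0.03 (log2) over the 783 genes with at least 200 reads on average. Low counts of 1 to 39 were even in 75.3% to 79.0% of cases in the pterosin B experiment, against 45.5% to 50.7% in the knockout experiment, so counting intervals would be too narrow there.

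The 9 libraries of the pterosin B experiment were fitted with edgeR 4.0.16 (R 4.3.3), quasi-likelihood, filterByExpr, TMM factors of 0.943 to 1.04, 6 residual degrees of freedom and Benjamini-Hochberg adjustment, two-sided, passing at an adjusted p under 0.05. It was tested on simulated data. DESeq2 1.42.0 and other settings were alternatives. Same-numbered libraries correlated weakly, at -0.0477 to 0.0954. Between SCR and SCRP the same-numbered pairs gave 0.0494, 0.0954 and 0.0463, and the highest differently numbered pair gave 0.00704. Whether numbers pair these groups was thus not settled, and the main fit used no replicate block. Libraries of a group differed from each other by more than sampling noise, at 2.418 to 19.89 chi-square per degree of freedom. The letters of 2 of the 3 motifs were shortened to 9 after matches had been seen. Sequences came from GENCODE release 21 and RefSeq, similarity from BLAST 2.17.0, and tables and plots from Python 3.11.15, pandas 2.3.3, numpy 2.4.6 and matplotlib 3.10.9. Named genes are the class I, loading, complement, heat shock and tumour necrosis factor cluster members, and of the rest the 10 most extreme KO over WT ratios in each direction at 1 CPM or more, with 3 listed neighbours on each side, up to 4 examples per outside list, and Sik3. Genes named beyond these, such as Tnxb and Gm10260, were chosen after their values were seen. None of the 4 complement genes was listed. Members and lists were chosen with earlier results of these data known.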

Additional observations from a re-analysis of the deposited data

How the results depend on the processing

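The counts of all genes and of members passing in SCR minus SC and SCRP minus SCR, the counts of genes outside the region in the 3 lists, the division of the 42 members into 19 higher and 23 lower in KO, and the count of members nearer to KO in SCR were each recomputed under their alternatives, and all 88 values stayed within 1.5 times the reported ones. The members were selected on KO against WT with a fold of at least 2. The direction of KO against WT could thus hardly change under any alternative, and its stability is not read as support. With 1 library left out, 15 to 16 members passed in SCR minus SC and 8 to 11 in SCRP minus SCR, with 7567 to 7800 and 4396 to 4767 genes in all. A replicate block gave 16 and 10 members (8182 and 5394 genes). Whether the numbers pair the SCR and SCRP libraries was not settled, so the block is given as an alternative only. SCR lay nearer to KO for 26 to 27 members under RPKM, unique reads and pseudocounts of 0.1 and 1 CPM, and for 30 after centring on the median listed gene, a choice made after seeing the data. Centring shifts every listed gene. The shares outside the region under these alternatives are not given here, so nothing is read from the differences between these counts. Scaling KO and WT to the total of listed genes lowered log2 KO over WT by a median of 0.34 and moved no member across 0. Of the 27 member calls, 7 were lost under at least 1 alternative, those of Gm11131, H2-M3, H2-T24, Pram1 and Vwa7 in 1 contrast each and of Lst1 in both, and 0 reversed. In SCR minus SC, 5 members that had not passed did so under an alternative, Gm10501 without SC replicate 2, Gm20427 and Kank3 without SC replicate 3, A930015D03Rik without SC replicate 1, with a replicate block and with no filter, and Gm11131 in unique reads and with only both groups compared in the fit. The cause was not tested. Unique and intron reads could not be tried for KO over WT because the knockout table holds neither. Of the 42 members, 14 had too few reads in the pterosin B experiment to be tested.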
